A study of Mus musculus with 36 samples.

Results

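A set of 10 genes that make or clear oxysterols, or that carry the oxysterol signal through the liver X receptors (LXRs), was followed in 3 liver cell types after loss of Kupffer cells. The members were the enzymes Ch25h and Cyp7b1, the receptors Nr1h3 and Nr1h2, and the LXR target genes Abca1, Abcg1, Mylip, Lpcat3, Apoe and Pltp. They were chosen by name, as rows present in every count file, and all 10 were found among 24421 gene symbols. RNA was sequenced from hepatocytes, from hepatic stellate cells (HSCs), which store retinoids and lie beneath the sinusoid wall, and from the endothelium of the sinusoids (LSECs), all of C57BL/6 mice. Each cell type had a WT group, given as PBS mice in the series' design text, and groups taken 12 h and 36 h after injection of DT (diphtheria toxin) to remove the resident macrophages, the Kupffer cells. Each of the 9 groups held 4 libraries, 36 in all. No transgene, age, sex or cell sorting scheme, and no mice given the toxin without losing Kupffer cells, stand in the labels, so effects of the toxin and of Kupffer cell loss cannot be told apart. Nothing in the labels ties libraries to single mice, so p-values measure the spread between these libraries.

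Oxysterols are cholesterol molecules with an added hydroxyl group. Ch25h adds it at carbon 25 of cholesterol, and Cyp7b1 hydroxylates the resulting 25-hydroxycholesterol further, to an oxysterol that attracts immune cells through the receptor Gpr183. Oxysterols activate the nuclear receptors LXRα (Nr1h3) and LXRβ (Nr1h2), which pair with retinoid X receptors on promoters of genes for cholesterol efflux and lipid remodelling, and they also hold back SREBP2, the activator of cholesterol synthesis genes. In the liver LXRα is known for its high level in hepatocytes and Kupffer cells.

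The 250 bases before the RefSeq start site (GRCm38.p6) are shown for 2 members, less the stretch inside the GENCODE gene model. Ch25h is shown because it had the largest rise of any member within a cell type. Capitals mark TGACGTCA, the palindromic cAMP response element, which was singled out after the sequence had been read. Abca1 is shown because its element was the closest match to an LXR site among the members' promoters. Capitals there mark that match.
Ch25h, chr19:34475165-34475398, minus strand: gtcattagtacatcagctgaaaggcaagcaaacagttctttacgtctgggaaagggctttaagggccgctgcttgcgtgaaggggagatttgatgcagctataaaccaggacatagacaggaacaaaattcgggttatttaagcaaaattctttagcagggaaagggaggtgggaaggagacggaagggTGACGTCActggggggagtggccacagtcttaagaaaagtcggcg
Abca1, chr4:53159896-53160145, minus strand: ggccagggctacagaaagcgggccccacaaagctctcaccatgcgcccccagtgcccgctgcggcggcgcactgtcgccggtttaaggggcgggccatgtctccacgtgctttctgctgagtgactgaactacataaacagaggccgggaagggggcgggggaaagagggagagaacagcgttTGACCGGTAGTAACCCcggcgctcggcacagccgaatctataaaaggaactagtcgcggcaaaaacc
TGACGTCA begins 61 bases before the Ch25h start and was found in 1.79% of 32851 mouse promoters of 300 bases, and in no other member's. The LXR element was searched on both strands as a direct repeat of AGGTCA with 4 free bases between its copies. With at most 2 mismatches in its fixed letters it was found in 3.02% of promoters and in 0 of the 8 members with a promoter sequence. With at most 3 mismatches, a setting added after seeing the data, it was found in 21.9% of promoters and in 1 member, Abca1, where it begins 67 bases before the start on the opposite strand. The interferon element, GAAA repeated after 2 free bases (3.44% of promoters, both strands), and the NF-κB consensus (4.51%) matched no member. A match here describes letters in a window and not binding.

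The libraries held 25404719 to 31734631 counts. Summed levels of 8 stellate markers (among them Lrat and Reln) were 16961 to 37184 CPM (counts scaled to a common library size) in HSC libraries and at most 185 in the others. The sum of 8 sinusoidal endothelial markers (among them Stab2 and Clec4g) was 14624 to 22153 CPM in LSEC libraries and at most 89.3 in the others. The 8 hepatocyte markers (among them Alb) summed to 62839 to 114790 CPM in hepatocyte libraries and at most 437 in the others. Each cell type thus carried its own markers. Of 11 Kupffer cell markers, 7 could be tested in HSCs and 10 in LSECs. At 12 h 5 fell in each, beside 15.1% and 8.5% of all genes, and in HSCs Slc40a1, an iron exporter, was among them. The sum of the 11 markers consisted mostly of Slc40a1 and with it ran from 118 to 765 CPM in HSCs and 426 to 766 in LSECs. Without Slc40a1, which was left out after its values were seen, HSC libraries summed to 2.99 to 15.7 CPM before depletion and to 0.290 to 2.55 after 12 h. For LSEC libraries these sums were 12.3 to 25.6 and 2.24 to 5.56 CPM. At 36 h they were 0.796 to 13.2 CPM in HSCs and 1.62 to 16.6 in LSECs, overlapping WT in both. At that time 0 of 7 and 0 of 10 markers were called against WT, beside 0.142% and 0% of all genes. In such bulk libraries fewer cells of a type and less RNA per cell cannot be told apart. Clec4f and Timd4, which define Kupffer cells, had no count in HSC libraries at 12 h, and Timd4 had none in LSEC libraries.

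At 12 h the clearest changes among the members were in the enzymes. In LSECs Ch25h rose 26.1-fold and Cyp7b1 4.05-fold. In HSCs Cyp7b1 rose 15.6-fold and Ch25h 3.82-fold, from very low levels. Nr1h3 and Abca1 also rose in HSCs, Pltp fell there, and Apoe fell in LSECs. At 36 h no member was called against WT in any cell type, and in hepatocytes none was at either time. Called here means an adjusted p under 0.05 in edgeR's quasi-likelihood test over all genes tested. In HSCs at 12 h 5 of 10 members were called, beside 32% of all genes tested: 4 higher (17% of all genes) and 1 lower (15.1%). In LSECs at 12 h 3 of 10 were called, beside 18.2% of all genes, 2 higher (9.74%) and 1 lower (8.5%). The libraries of WT and 12 h did not overlap for 3 members in HSCs (30.7% of all genes) and 3 in LSECs (22.8%). At 36 h 0 of 10 were called against WT in HSCs, beside 0.142% of all genes (0.134% higher and 0.00789% lower), and 0 of 10 in LSECs, beside 0%. At an unadjusted p under 0.05 edgeR counted 2 members in each, and DESeq2 called 0 in each. Groups did not overlap at 36 h for 2 members in HSCs (6.38% of all genes) and 0 in LSECs (7.09%). From 12 h to 36 h 3 members were called in HSCs, all lower (27.9% of all genes called, 15% lower and 12.9% higher), with 2 not overlapping (25.3%). In LSECs 3 were called, 2 higher and 1 lower (21.3% of all genes called, 10.6% higher and 10.8% lower), with 2 not overlapping (22%). The median log2 fold of the members at 12 h was 0.34 in HSCs and -0.05 in LSECs, beside 0.01 and -0.02 for all genes.

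**Figure D1:**
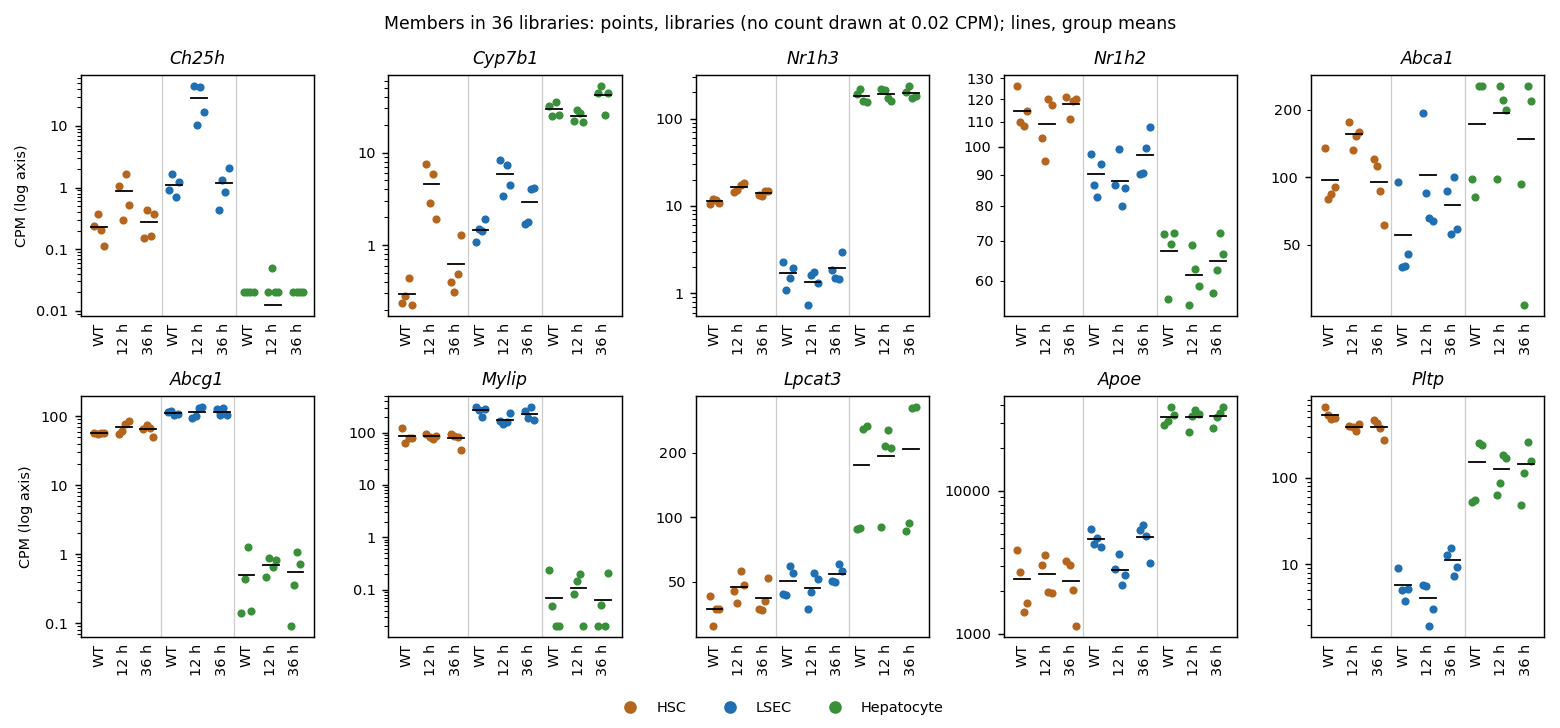
CPM of each member (log axis, scaled over all 36 libraries) in every library of the 9 groups. Points are libraries, lines are group means, and libraries with no count are drawn at 0.02 CPM. Ch25h stands at 10.4 to 45.4 CPM in LSECs at 12 h and at no more than 2.11 CPM in every other group.

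Ch25h, cholesterol 25-hydroxylase, is a single-exon gene at chr19:34473778-34475164 (mm10, ENSMUSG00000050370). In LSECs it read 0.924, 1.64, 0.702 and 1.22 CPM in WT replicates 1 to 4. At 12 h it read 45.4, 10.4, 42.6 and 16.9 CPM, and at 36 h 0.432, 1.31, 0.843 and 2.11 CPM. All 12 h libraries lay above all others, and the WT and 36 h libraries overlapped. The log2 fold at 12 h was 4.71 (SE 0.54, edgeR adjusted p = 0.000233, n = 4 per group), and from 12 h to 36 h it fell by 4.65 (SE 0.54, adjusted p = 0.000178). This rise and this fall were called in every alternative analysis.

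In HSCs Ch25h read 0.234, 0.377, 0.205 and 0.112 CPM in WT, 1.07, 0.296, 1.66 and 0.515 at 12 h, and 0.153, 0.438, 0.162 and 0.370 at 36 h. These are 30, 110 and 36 counts per group, and replicate 2 at 12 h lay inside the WT range. The log2 fold at 12 h was 1.93 (SE 0.59, edgeR adjusted p = 0.0225), and the fall from 12 h to 36 h was called as well (log2 fold -1.65, SE 0.58, adjusted p = 0.0462). The 12 h call was lost without WT replicate 1, 3 or 4 or 12 h replicate 3 (log2 folds 1.94, 1.89, 1.70 and 1.46, adjusted p 0.0537 to 0.0895). The later fall was called without 12 h replicate 2 or 4 only, and the other 6 fits gave adjusted p 0.0535 to 0.173. It was also lost with no filter (adjusted p = 0.0641) and in the fit of 2 groups (0.0717). In hepatocytes Ch25h had no count in WT or 36 h libraries and 1 count in all at 12 h.

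Cyp7b1, the oxysterol 7α-hydroxylase at chr3:18071950-18243338 (mm10, minus strand), had the largest rise in HSCs. It read 0.234, 0.283, 0.444 and 0.223 CPM in WT and 7.54, 2.87, 5.84 and 1.90 at 12 h, then 0.398, 0.313, 0.486 and 1.29 at 36 h. Every 12 h library lay above every WT and 36 h library. The log2 fold at 12 h was 3.96 (SE 0.55, edgeR adjusted p = 0.000233), and from 12 h to 36 h it fell by 2.88 (SE 0.51, adjusted p = 0.00132).

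In LSECs Cyp7b1 read 1.09, 1.49, 1.40 and 1.90 CPM in WT, 8.35, 3.37, 7.30 and 4.52 at 12 h, and 1.70, 1.76, 4.02 and 4.12 at 36 h. The 12 h libraries lay above the WT libraries and overlapped those of 36 h. The log2 fold at 12 h was 2.02 (SE 0.37, edgeR adjusted p = 0.00266). The log2 fold from 12 h to 36 h was -1.05 (SE 0.36), which missed the threshold (adjusted p = 0.051) and passed it without 12 h replicate 2 or 36 h replicate 3 or 4 (adjusted p 0.0256, 0.0498 and 0.0316). DESeq2 called it (adjusted p = 0.0175).

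Within the 12 h groups, replicates 1 and 3 read higher than replicates 2 and 4 for both enzymes in both HSCs and LSECs. A list of 12 immediate early genes (among them Fos and Jun) holds genes that respond within minutes to handling or stimuli. Their sums were instead highest in replicates 1 and 4 (HSCs 14739 and 18431 CPM, LSECs 18343 and 17860). The sums were lower in replicates 2 and 3 (HSCs 3771 and 3464, LSECs 3397 and 5339). Of this list 4 of 12 rose in HSCs and 0 of 12 in LSECs at 12 h, beside 17% and 9.74% of all genes. Its median log2 fold at 12 h was 1.496 in HSCs and 0.942 in LSECs. From 12 h to 36 h 12 of 12 fell in HSCs and 8 of 12 in LSECs, beside 15% and 10.8% of all genes. The LSEC sums in WT ran from 1907 to 16847 CPM, highest in replicate 2. The count of 0 in LSECs therefore does not show that the list was unchanged there. Summed markers of monocytes and neutrophils moved with time as well, from 203 to 286 CPM in WT to 443 to 952 at 12 h in HSCs and from 11.9 to 15.5 to 15.1 to 40.2 in LSECs. Of the 8 genes in that list 2 were tested in HSCs and 7 in LSECs. The HSC sum was almost all Plac8, which rose from a mean of 256 to 656 CPM, while Lyz2 fell from 3.09 to 1.03 CPM. This is 1 higher and 1 lower, beside 17% and 15.1% of all genes. In LSECs 1 of 7, Plac8, was called higher and 0 lower, beside 9.74% and 8.5% of all genes. The median log2 fold of the 7 was 1.498 there, beside -0.017 for all genes. S100a8, a defining neutrophil gene, had no count in HSC libraries at 12 h, and none of the 8 was at 0 in LSECs at 12 h. Of 6 erythroid and platelet markers, 3 tested in HSCs and 4 in LSECs, Pf4, a platelet chemokine, rose at 12 h in both (log2 folds 2.24 and 2.02, edgeR adjusted p 0.000119 and 0.00433) and fell from 12 h to 36 h (-1.71 and -2.65). In HSCs the list's sum ran from 213 to 302 CPM before depletion and from 245 to 318 after 12 h, when Hbb-bs and Hba-a1 were at 0. In LSECs its mean was 9.45 CPM before and 18.9 after 12 h, when Hba-a1 was at 0. The part of these cells and of the immediate early response in the enzyme levels was not tested.

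**Figure D2:**
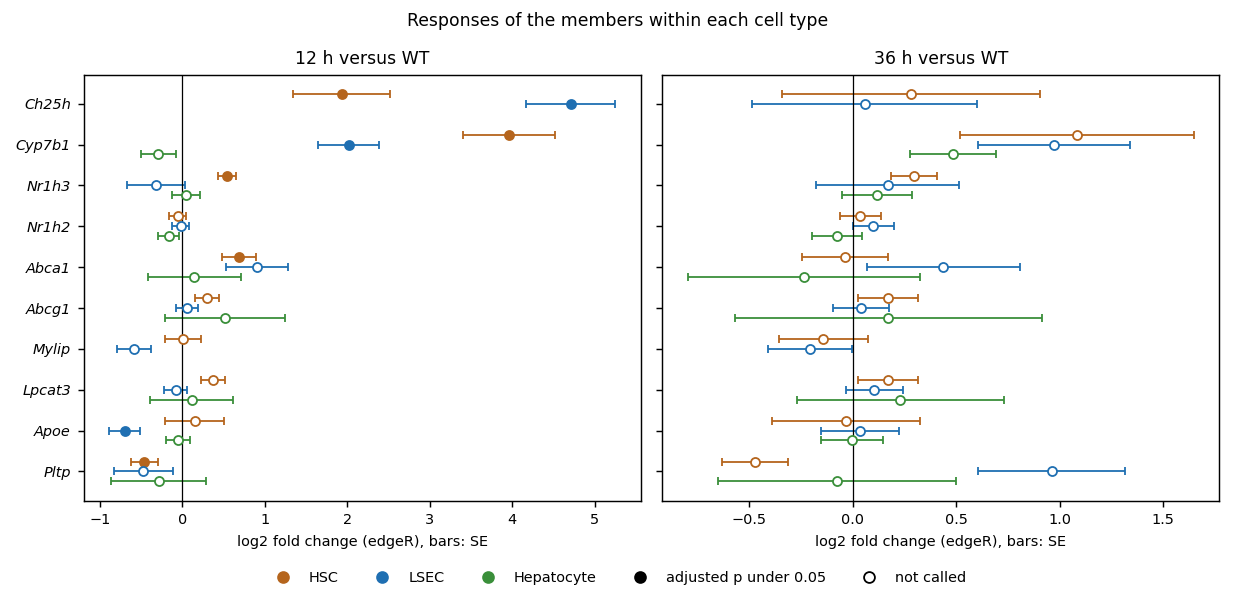
Log2 fold change of each member at 12 h (left) and 36 h (right) against WT within each cell type, from edgeR, with bars of 1 SE. Filled points had an adjusted p under 0.05. At 12 h, 5 members are filled for HSCs, 3 for LSECs and 0 for hepatocytes, and at 36 h none is filled.

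The receptors behaved differently from each other. Nr1h3 read 10.5, 12.1, 11.8 and 10.9 CPM in HSC WT libraries, 14.6, 15.2, 17.2 and 18.2 at 12 h and 13.2, 13.1, 14.7 and 14.7 at 36 h. The WT libraries lay below those of both later times, which overlapped. The log2 fold was 0.54 at 12 h (SE 0.11, edgeR adjusted p = 0.00267) and 0.29 at 36 h (SE 0.11, adjusted p = 0.571). LSECs held 0.728 to 2.94 CPM of Nr1h3 over all 12 libraries, and the 3 groups overlapped. Nr1h2 read 94.7 to 126 CPM in HSCs and 79.9 to 108 in LSECs, with log2 folds of -0.06 and -0.02 at 12 h (SE 0.10 each, adjusted p 0.696 and 0.916).

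Among the target genes Abca1, the efflux pump that loads cholesterol onto lipid-poor apolipoprotein A-I, rose in HSCs. It read 136, 80.1, 84.4 and 90.8 CPM in WT, 177, 133, 153 and 159 at 12 h, and 121, 112, 87.3 and 61.1 at 36 h. WT replicate 1 reached into the 12 h range. The 12 h libraries lay above those of 36 h. The log2 fold was 0.69 at 12 h (SE 0.21, edgeR adjusted p = 0.0216) and -0.73 from 12 h to 36 h (SE 0.21, adjusted p = 0.0188). The 12 h call was lost without WT replicate 2, 3 or 4 or 12 h replicate 1 (adjusted p 0.0505 to 0.0641). The fall was lost without 36 h replicate 3 (adjusted p = 0.0551).

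In LSECs Abca1 read 95.8, 39.8, 40.1 and 45.7 CPM in WT, 193, 85.5, 66.1 and 64.0 at 12 h, and 86.6, 56.0, 100.3 and 58.6 at 36 h. Replicate 1 stood apart in WT and at 12 h, and the groups overlapped through WT replicate 1. The log2 fold of 0.90 at 12 h (SE 0.37) missed the threshold (edgeR adjusted p = 0.109). Without WT replicate 1 it was 1.30 and called (adjusted p = 0.0308), and without 12 h replicate 1 the lowest estimate, 0.39, was obtained (adjusted p = 0.426).

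The other 5 targets did not move together. Apoe, an apolipoprotein of plasma lipoproteins, fell in LSECs from 5461, 4268, 4711 and 4061 CPM in WT to 2861, 3645, 2191 and 2568 at 12 h, and read 5331, 5777, 4815 and 3131 at 36 h. The 12 h libraries lay below the WT libraries, and 36 h replicate 4 reached into their range. The log2 fold at 12 h was -0.70 (SE 0.19, edgeR adjusted p = 0.0219) and from 12 h to 36 h 0.73 (SE 0.19, adjusted p = 0.0156). The 12 h call was lost without WT replicate 1 or 12 h replicate 3 or 4 (adjusted p 0.0639, 0.0648 and 0.0572). In HSCs Apoe ranged from 1131 to 3840 CPM with full overlap of the groups (log2 fold 0.15 at 12 h, SE 0.36).

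Pltp, the phospholipid transfer protein, read 666, 526, 478 and 486 CPM in HSC WT libraries, 395, 387, 345 and 421 at 12 h and 468, 431, 381 and 275 at 36 h. Libraries of both later times lay below WT. The log2 fold was -0.46 at 12 h (SE 0.16, edgeR adjusted p = 0.041) and -0.48 at 36 h (SE 0.16, adjusted p = 0.432). The 12 h call held in 1 of 8 fits that left out a library, the fit without 12 h replicate 4. The other 7, without any WT library or without 12 h replicate 1, 2 or 3, gave adjusted p 0.0501 to 0.136, and the fit with no filter 0.0567. In LSECs Pltp read 3.80 to 8.93 CPM in WT, 1.91 to 5.74 at 12 h and 7.34 to 15.6 at 36 h, and the rise from 12 h to 36 h was called (log2 fold 1.43, SE 0.36, edgeR adjusted p = 0.0128). The 8 stellate markers, whose cells hold far more Pltp, summed to 5.83 to 29.1 CPM in LSEC libraries at 12 h and 7.18 to 185 at 36 h. Of these markers 6 were tested there and 0 called, with a median log2 fold of 1.90, and none was at 0. The Pltp rise was called in each of the 8 fits that left out a library (adjusted p 0.0128 to 0.0409), among them the fit without 36 h replicate 4, which had the highest sum. The part of stellate RNA in this rise was not tested.

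Abcg1, the pump that delivers cholesterol to formed high-density lipoprotein, Lpcat3, which places polyunsaturated fatty acids in phospholipids, and Mylip, a ubiquitin ligase that lowers lipoprotein uptake, were called by the main edgeR test in no comparison within HSCs or LSECs. The log2 folds at 12 h were 0.30 (SE 0.14), 0.37 (SE 0.14) and 0.01 (SE 0.21) in HSCs and 0.06 (SE 0.14), -0.08 (SE 0.14) and -0.59 (SE 0.20) in LSECs. In LSECs Mylip read 312, 271, 198 and 278 CPM in WT and 163, 145, 157 and 233 at 12 h, with overlap through 12 h replicate 4. It was called without that library or without WT replicate 3 (adjusted p 0.0261 and 0.0407), by DESeq2 (0.0275) and in the fit of 2 groups (0.0473). In HSCs Abcg1 was called without 12 h replicate 1 (adjusted p = 0.0479), and Lpcat3 without WT replicate 1 or 12 h replicate 2 (adjusted p 0.0468 and 0.0408).

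The difference between the responses of 2 cell types was tested as a contrast in a fit of all 36 libraries. Cyp7b1 rose more at 12 h in HSCs than in hepatocytes by 4.19 on the log2 scale (SE 0.58, edgeR adjusted p = 6.54e-05), and more in LSECs than in hepatocytes by 2.26 (SE 0.51, adjusted p = 0.0136). It was the only member called in either contrast, beside 9.2% and 3.57% of all genes. Ch25h had no count in hepatocyte WT libraries and 1 count in all at 12 h, so these contrasts could not decide its difference. Between HSCs and LSECs no member was called, beside 1.62% of all genes, with differences of -2.77 for Ch25h (SE 0.82, adjusted p = 0.0929) and 1.94 for Cyp7b1 (SE 0.61, adjusted p = 0.108). Ch25h was called there without LSEC 12 h replicate 2 and Cyp7b1 without HSC 12 h replicate 4 (adjusted p = 0.0439 each), and DESeq2 called both (adjusted p 0.0273 and 0.0404). HSC and LSEC libraries with the same replicate number deviated together from their group means at every time. In a fit of these 24 libraries with the replicate number within each time as a block, the difference was called for Ch25h (-2.75, SE 0.38, adjusted p = 0.00151) and for Cyp7b1 (1.86, SE 0.41, adjusted p = 0.0188), beside 5.92% of all genes. Without the block these 24 libraries gave adjusted p 0.0843 and 0.112. Ch25h thus rose more in LSECs and Cyp7b1 more in HSCs in the paired fit of 24 libraries, which was added after seeing the data. With such a block in the fit of 36 libraries, Ch25h was called (-2.77, edgeR adjusted p = 0.00553) and Cyp7b1 was not. That fit called 192 of 14104 genes. No difference was called at 36 h, beside 0% of all genes for HSCs against LSECs and 0.00709% for each contrast with hepatocytes.

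In hepatocytes 8 of the 10 members had counts enough to be tested. None was called in any of the 3 comparisons, beside 0% of all genes in each, and for none did the groups lie apart (3.15, 2.82 and 3.47% of all genes for 12 h and 36 h against WT and 36 h against 12 h). At an unadjusted p under 0.05 the counts of members were 0 for 12 h against WT, 1 for 36 h against WT and 1 for 36 h against 12 h, and DESeq2 called 0 members. Cyp7b1 read 32.1, 25.0, 35.4 and 25.8 CPM in WT, 22.1, 28.9, 26.8 and 21.4 at 12 h and 44.5, 53.1, 25.5 and 44.0 at 36 h, and the groups overlapped. The log2 fold was -0.29 at 12 h (SE 0.21) and 0.48 at 36 h (SE 0.21, edgeR adjusted p = 0.95). Apoe stayed between 25805 and 38834 CPM in all 12 libraries.

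The 12 hepatocyte libraries differed in Malat1, a nuclear RNA, which lay above 100 CPM in 2 WT, 1 12 h and 2 36 h libraries and below it in the other 7. Abca1 read 26.9 to 98.8 CPM in the 5 libraries with high Malat1 and 200 to 257 in the other 7, with no overlap. Lpcat3 read 86.7 to 94.3 against 210 to 329 CPM, also with no overlap, and Pltp 48.7 to 113 against 87.7 to 259. Srebf1, the LXR target that activates fatty acid synthesis, read 150 to 343 against 579 to 1246 CPM. Nr1h3 itself overlapped, at 192 to 240 against 155 to 211 CPM. The split was known from earlier results and is a description with no test. It ran through every time point. With a term for it, 0 members were called in hepatocytes.

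**Figure D3:**
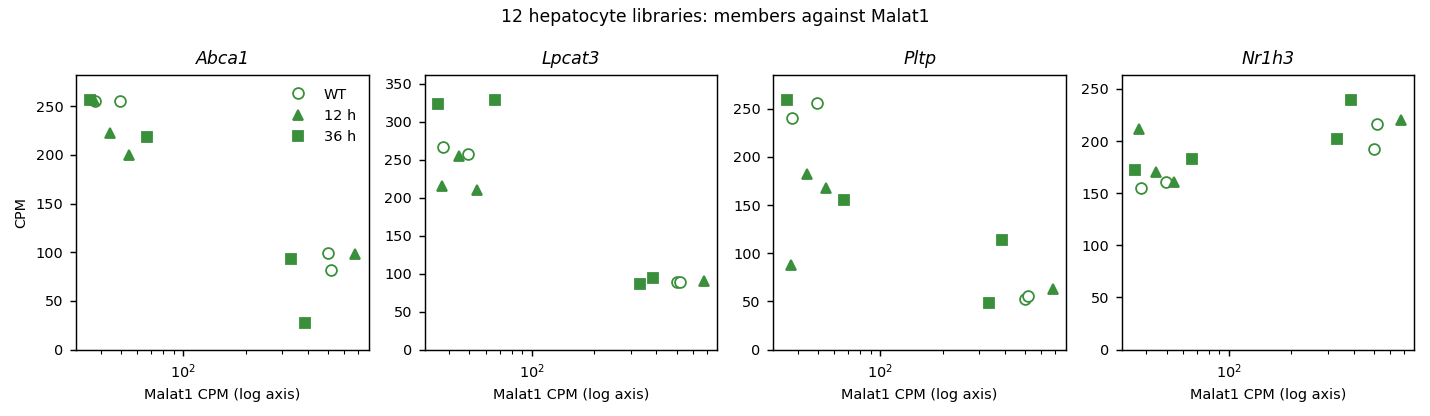
CPM of Abca1, Lpcat3, Pltp and Nr1h3 (linear axes from 0) against CPM of Malat1 (log axis) in the 12 hepatocyte libraries, with time points as open circles (WT), triangles (12 h) and squares (36 h). Abca1 and Lpcat3 fall into separate ranges on either side of 100 CPM of Malat1, and each time point has libraries on both sides.

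Between WT groups 8 of 10 members were called for HSCs against LSECs (3 higher, 5 lower, beside 54.3% of all genes, 28.8% higher and 25.5% lower). For HSCs against hepatocytes 9 were called (5 higher, 4 lower, beside 76.9%, 42.8% higher and 34.1% lower), and for LSECs against hepatocytes 10 (4 higher, 6 lower, beside 76.6%, 41.6% higher and 35% lower). In each of these comparisons 9 members did not overlap, beside 57.9, 72.4 and 71.8% of all genes. All genes had a median log2 fold of 0.21 and 0.20 in the 2 comparisons with hepatocytes. At 12 h the counts were 6, 9 and 9, beside 53.5, 75.6 and 76.5%, and at 36 h 8, 9 and 9, beside 52.8, 77.2 and 78% of all genes.

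Hepatocytes held the most Nr1h3, Cyp7b1, Apoe and Lpcat3. Nr1h3 in WT was 181 ± 28.5 CPM in hepatocytes (SD, n = 4), 11.3 ± 0.740 in HSCs and 1.71 ± 0.524 in LSECs, and none of these groups overlapped. Against hepatocytes it was lower by 4.00 on the log2 scale in HSCs (SE 0.22, edgeR adjusted p = 3.45e-17) and by 6.72 in LSECs (SE 0.25, adjusted p = 3.52e-21). Nr1h2 varied much less, with HSCs at 115 ± 8.13 CPM, LSECs at 90.1 ± 6.69 and hepatocytes at 67.2 ± 7.58. Per kilobase of exon, Nr1h2 stood above Nr1h3 in HSCs (34.3 against 4.50 CPM per kb) and LSECs (26.8 against 0.681), and below it in hepatocytes (20 against 72.0).

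Cyp7b1 in WT was 29.6 ± 5.01 CPM in hepatocytes, 1.47 ± 0.332 in LSECs and 0.296 ± 0.102 in HSCs, in that order without overlap, and each step was called (edgeR adjusted p = 2.12e-11 for LSECs against hepatocytes and 0.000136 for HSCs against LSECs). At 12 h the difference between HSCs and LSECs was not called (log2 fold -0.38, SE 0.36, adjusted p = 0.39), and both stayed below hepatocytes. Ch25h was also higher in LSECs than in HSCs, at each time (log2 folds of HSCs against LSECs -2.26 in WT, -5.03 at 12 h and -2.04 at 36 h, adjusted p 0.00241, 1.25e-08 and 0.0046). Against a floor of 3 counts over the group of hepatocytes, WT Ch25h was at least 29.3-fold higher in LSECs and at least 6.09-fold higher in HSCs. These bounds cover counting error only.

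Abcg1 and Mylip were close to absent in hepatocytes. Abcg1 in WT was 112 ± 6.26 CPM in LSECs, 57.4 ± 1.05 in HSCs and 0.494 ± 0.525 in hepatocytes, and Mylip 265 ± 48.4, 85.3 ± 25.2 and 0.0703 ± 0.111. For both, HSCs were below LSECs (log2 folds -0.97 and -1.63, edgeR adjusted p 0.00243 and 5.85e-06). At 12 h the Abcg1 call between HSCs and LSECs (log2 fold -0.73, adjusted p = 0.02) was lost without HSC replicate 1 or 2 or LSEC replicate 3 or 4 (adjusted p 0.0505 to 0.0633). Pltp had another order, with 539 ± 87.2 CPM in HSCs, 151 ± 112 in hepatocytes and 5.72 ± 2.22 in LSECs. HSCs held more of it than LSECs by 6.56 on the log2 scale (SE 0.57, adjusted p = 9e-12).

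Apoe in WT was 33103 ± 4312 CPM in hepatocytes, 4625 ± 619 in LSECs and 2406 ± 1113 in HSCs. The lower level in HSCs than in LSECs (log2 fold -0.94, SE 0.32, edgeR adjusted p = 0.012) was lost without HSC replicate 3 or 4 (adjusted p 0.0587 and 0.0522). Hepatocyte markers summed to 214 to 319 CPM in HSC WT and 28.7 to 133 in LSEC WT libraries. Abca1 was spread widely in hepatocytes (173 ± 95.5 CPM) and differed in WT only between LSECs and hepatocytes (log2 fold -1.64, SE 0.47, adjusted p = 0.00221), with 97.7 ± 25.7 CPM in HSCs and 55.4 ± 27.1 in LSECs. HSCs against hepatocytes gave -0.82 (SE 0.46, adjusted p = 0.104) and were called without hepatocyte replicate 2 (-1.05, adjusted p = 0.0472). In the paired fit of HSC and LSEC libraries with the replicate block, Abca1 was higher in HSCs in WT (log2 fold 0.83, adjusted p = 0.00435, against 0.135 in the fit of 36 libraries) and at 12 h (0.71, adjusted p = 0.0119, against 0.278). Without LSEC replicate 1 the WT difference was 1.22 (adjusted p = 0.0398). The same 24 libraries without the block gave Abca1 adjusted p 0.052 and 0.15. Lpcat3 was lower in HSCs than in LSECs in the fits of 24 libraries, in WT (adjusted p 0.00156 with the block and 0.00454 without) and at 36 h (0.00375 and 0.0133), and was not called in the fit of 36 libraries (0.313 and 0.387). The paired fits called 66.7, 65.3 and 65% of all genes in WT, at 12 h and at 36 h.

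**Figure D4:**
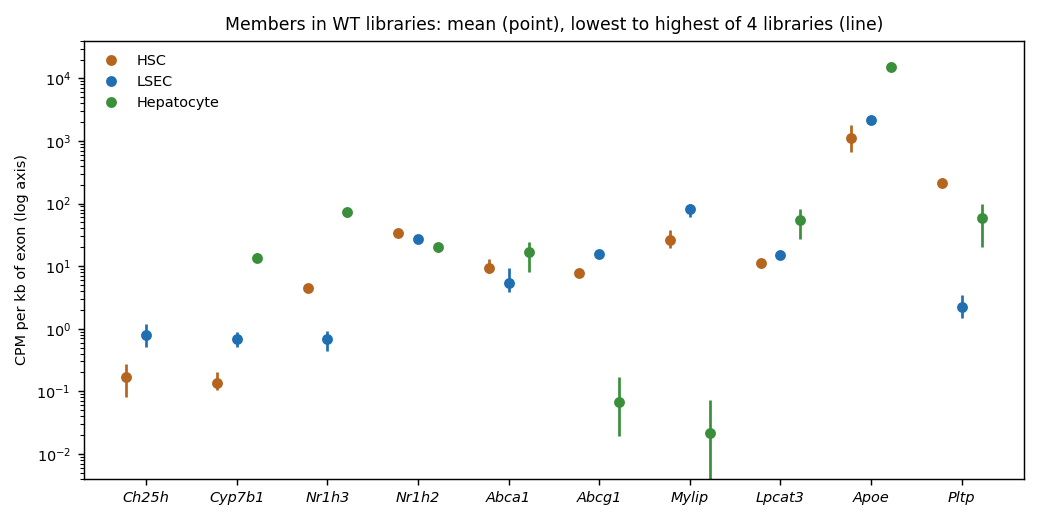
Level of each member in WT libraries as CPM per kb of exon (log axis) for HSCs, LSECs and hepatocytes. Points are means of 4 libraries and lines run from the lowest to the highest library, reaching the lower axis where a library had no count. Hepatocytes with no count of Ch25h are not drawn, and Abcg1 and Mylip stand below 0.2 CPM per kb in hepatocytes and above 5 in the other cell types.

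Other genes of the pathway were taken from lists made with earlier results of these data known. Of 10 further oxysterol enzymes and their receptor 8 were tested in each cell type. None rose and 2 fell at 12 h in both HSCs and LSECs, namely Cyp27a1, the mitochondrial sterol 27-hydroxylase, and Cyp39a1, which hydroxylates 24-hydroxycholesterol. Of all genes 15.1% fell in HSCs and 8.5% in LSECs. The median log2 fold of the list was -0.79 in HSCs and -0.76 in LSECs, beside 0.01 and -0.02 for all genes. The middle genes in HSCs were Akr1d1 (-1.05, SE 0.83) and Cyp7a1 (-0.52, SE 0.61). Neither was called, and Cyp7a1 had a mean of 1.26 CPM in HSC WT libraries. The middle genes in LSECs were Cyp27a1 and Cyp39a1. In HSCs Cyp27a1 read 90.3, 51.8, 59.2 and 60.7 CPM in WT, 19.8, 22.5, 15.9 and 30.2 at 12 h and 70.1, 89.2, 72.0 and 44.5 at 36 h. The 12 h libraries lay below all others (log2 fold -1.55, SE 0.24, edgeR adjusted p = 0.000412). In LSECs it fell from 5.13 to 9.94 CPM in WT to 3.07 to 4.82 at 12 h (log2 fold -0.76, SE 0.23, adjusted p = 0.0347).

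Cyp39a1 fell by 1.41 on the log2 scale in HSCs (SE 0.25, edgeR adjusted p = 0.000996) and by 0.75 in LSECs (SE 0.20, adjusted p = 0.0196). Both genes rose again from 12 h to 36 h in both cell types. Hsd3b7, which acts after Cyp7b1 and inactivates the oxysterol ligand of Gpr183, gave log2 folds at 12 h of -0.22 (SE 0.17, adjusted p = 0.346) in HSCs and -0.03 (SE 0.09, adjusted p = 0.838) in LSECs. Gpr183 read 5.54 to 9.11 CPM in LSEC WT libraries and 2.78 to 6.63 at 12 h (log2 fold -0.50, SE 0.25, adjusted p = 0.19), and at most 0.393 CPM in any HSC or hepatocyte library. The 7 lymphocyte markers (among them Cd3e and Cd79a) summed to 0.729 to 4.44 CPM in LSEC WT libraries and 1.16 to 4.59 at 12 h. Their sum was at most 0.497 CPM in HSC and 0.405 in hepatocyte libraries. The part of lymphocyte RNA in the Gpr183 level was not tested. In hepatocytes 0 of the 8 tested were called at either time, with Cyp7a1, the rate-limiting enzyme of bile acid synthesis, at 322 to 744 CPM over the 12 libraries.

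**Figure D5:**
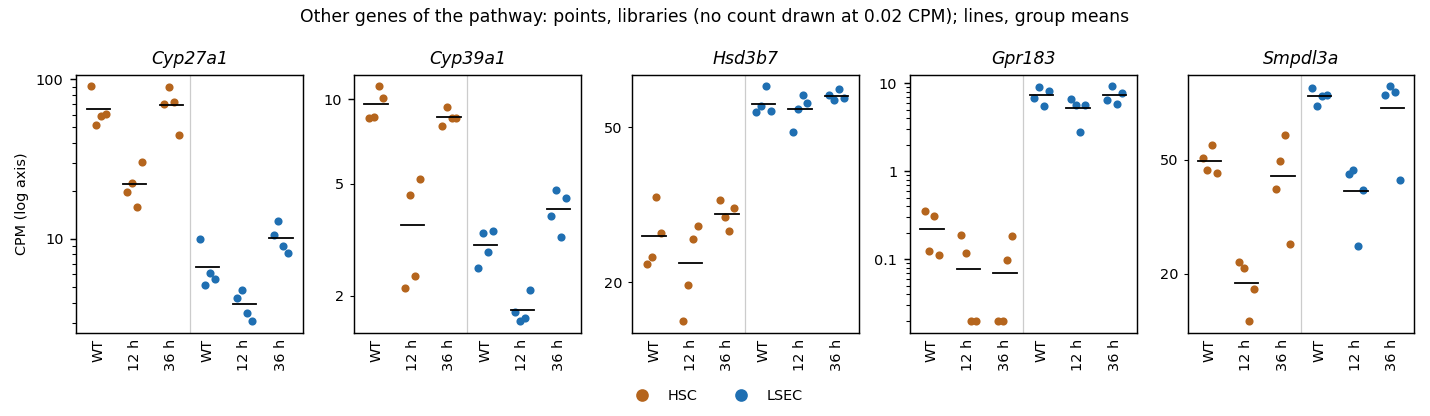
CPM (log axis) of 5 other genes of the pathway in HSC and LSEC libraries at WT, 12 h and 36 h. Points are libraries, lines are group means, and no count is drawn at 0.02 CPM. Cyp27a1, Cyp39a1 and Smpdl3a are lower at 12 h than in WT in both cell types, whereas Hsd3b7 overlaps between times.

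Of 16 other LXR targets 12 were tested in HSCs and in LSECs, and in each cell type 2 rose and 1 fell at 12 h, beside 17% and 15.1% of all genes in HSCs and 9.74% and 8.5% in LSECs. Smpdl3a, a sphingomyelinase-like phosphodiesterase, was the one that fell in both, from 45.1 to 56.2 CPM in WT to 13.7 to 21.9 in HSCs (log2 fold -1.39, SE 0.22, edgeR adjusted p = 0.000544) and from 77.0 to 88.9 to 25.0 to 46.2 in LSECs (log2 fold -1.09, SE 0.22, adjusted p = 0.00499). In HSCs Lpl (lipoprotein lipase, log2 fold 0.74, SE 0.18) and Fasn (fatty acid synthase, 0.40, SE 0.13) rose, the latter with overlapping groups. In LSECs Acaca (acetyl-CoA carboxylase, 0.58, SE 0.15) and Rnf145 (a ubiquitin ligase of the sterol response, 0.49, SE 0.14) rose, both with overlapping groups. Fasn was not called there (0.89, SE 0.30, edgeR adjusted p = 0.0547), though its 12 h libraries lay above WT. Srebf1 gave 0.16 (SE 0.12, adjusted p = 0.312) in HSCs and 0.19 (SE 0.09, adjusted p = 0.165) in LSECs. The medians of the list were -0.06 and -0.01.

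Of 20 genes of cholesterol synthesis and uptake under SREBP2, 9 rose and 1 fell in HSCs at 12 h, beside 17% and 15.1% of all genes, with a median log2 fold of 0.63 beside 0.01 for all genes. In LSECs 0 rose and 2 fell, beside 9.74% and 8.5% of all genes, with a median of -0.25 beside -0.02. The difference between the cell types was not tested for this list. Among those that rose in HSCs were Mvd (log2 fold 1.14, SE 0.20) and Cyp51 (1.08, SE 0.23), enzymes of cholesterol synthesis, and Srebf2 itself (0.66, SE 0.15). In LSECs Stard4 (-0.39, SE 0.11) and Lss (-1.46, SE 0.47) fell, both with overlapping groups. Lss went from a mean of 0.848 CPM in WT to 0.303 at 12 h. Of the 12 genes of sterol efflux, esterification and lipoprotein exchange, Lcat, which esterifies cholesterol in plasma, rose in HSCs (log2 fold 1.78, SE 0.29). Lipg (endothelial lipase, 4.62, SE 0.83) rose in LSECs, from a mean of 0.124 CPM in WT to 3.02 at 12 h. Nceh1, which frees cholesterol from its esters, also rose there (0.58, SE 0.11). Abca7 fell in both cell types (-0.55, SE 0.13, and -0.68, SE 0.14). Lipa, the lysosomal acid lipase, fell in HSCs (-0.39, SE 0.14) and Abca2 in LSECs (-0.51, SE 0.15). Of this list 11 were tested in HSCs, where 1 rose and 2 fell, beside 17% and 15.1% of all genes. In LSECs 12 were tested, and 2 rose and 2 fell, beside 9.74% and 8.5% of all genes. Of the 13 receptor partners and co-regulators 11 were tested in HSCs, where 1 rose and 1 fell, beside 17% and 15.1% of all genes. These were Ncoa3 (0.41, SE 0.14) and Rxra, a partner of the LXRs (-0.36, SE 0.13). In LSECs 12 were tested, and 0 rose and 1 fell, beside 9.74% and 8.5% of all genes. The gene that fell was Ncoa1 (-0.59, SE 0.18). Of 7 lysophospholipid acyltransferases, relatives of Lpcat3, 7 were tested in HSCs. There 1 rose, Mboat7 (0.30, SE 0.10), and 0 fell, beside 17% and 15.1% of all genes. In LSECs 4 were tested and 0 called, beside 9.74% higher and 8.5% lower of all genes. At 36 h no gene of these lists was called against WT in any cell type.

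The genes whose levels ran most closely with a called member were taken over the 12 libraries of 1 cell type by Pearson's r of log2(CPM + 1), as a description. These libraries share their time groups, so genes that moved at 12 h rank high. For Ch25h in LSECs they were Prf1 (0.133, 4.00 and 0.196 CPM at WT, 12 h and 36 h, r = 0.99), Yars (r = 0.98) and Gprc5b (r = 0.98). For Cyp7b1 in HSCs they were Bmp2 (199, 520 and 213 CPM, r = 0.99), Ermap (r = 0.98) and Wdr4 (r = 0.98). For Nr1h3 in HSCs they were G6pc3 (r = 0.94), Ifnar2 (r = 0.94) and Il18bp (28.0, 107 and 67.2 CPM, r = 0.93), and for Abca1 in HSCs Larp1b (r = 0.93), Polg (r = 0.92) and Ppp1r13b (r = 0.91). For Apoe in LSECs they were Zkscan5 (r = 0.98), Ntn4 (662, 328 and 662 CPM, r = 0.96) and Cdc42ep3 (r = 0.96), and for Pltp in HSCs Cpq (r = 0.93), Ecm1 (r = 0.93) and Zfp651 (r = 0.93).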

How the data were processed

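The deposited values are whole-number read counts per gene symbol, 1 file per library, as the authors made them. Per the submitters' processing notes the authors used FastQC 0.11.4, Trimmomatic 0.35, TopHat2 2.1.0, SAMtools 0.1.18 and mm10. Counter, strandedness and gene models were not given in the sources used here, so reads of overlapping genes cannot be told apart. The 5 lines that name no gene were left out (reads in no gene were 4.9 to 9.02% of a library). No 2 of 54 within-group pairs were identical.

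Counts were tested with edgeR 4.0.16 in R 4.3.3 (quasi-likelihood, TMM, filterByExpr, Benjamini-Hochberg over all genes tested). Responses came from the 12 libraries of each cell type, and cell types and differences of responses from all 36 libraries in 9 groups. CPM were scaled over all 36 libraries, and lengths and positions came from GENCODE. The SE is the log2 fold over the square root of F. The scripts were tested on simulated counts. Members and lists were chosen with earlier results of these data known. From each list up to 4 called genes per comparison were named by smallest adjusted p. A gene that this rule names is not reported here.

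Alternatives were RLE scaling, no filter, DESeq2 1.42.0, fits of fewer groups, a Malat1 term, the replicate number as a block and leaving out each library. Same-numbered libraries were taken as paired where every pair's deviations from its group means correlated above 0.1. This held for HSCs against LSECs (r from 0.165 to 0.622 over the 3 times), for 36 h against WT in HSCs (0.178 to 0.414) and hepatocytes (0.52 to 0.681), and in no other comparison. Replicates 1 and 2 were the libraries with high Malat1 in both of these hepatocyte groups. Pairing and the Malat1 split cannot be told apart there. The fit of the 24 HSC and LSEC libraries, with and without that block, was added after seeing the data. Promoters came from RefSeq (GRCm38.p6), with a sequence for 8 of 10 members.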

Additional observations from a re-analysis of the deposited data

Results flagged for a closer look

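In 88 groups of 4 libraries tested for a library far from the other 3, 3 were picked out, and chance alone picks about 5% of groups. Abca1 read 95.8 CPM in LSEC WT replicate 1 beside 39.8 to 45.7 in the other 3, and 193 CPM in LSEC 12 h replicate 1 beside 64.0 to 85.5. Ch25h read 0.0493 CPM, which is 1 count, in hepatocyte 12 h replicate 2 and had no count in the other 3.

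A total of 4 differences between the responses of cell types at 12 h passed a test of the difference itself. Of these, 2 did so in a paired fit that was added after seeing the data. Cyp7b1 rose more than in hepatocytes by 4.19 on the log2 scale in HSCs and by 2.26 in LSECs. In the paired fit of HSC and LSEC libraries, Ch25h differed by -2.75 (HSCs minus LSECs) and Cyp7b1 by 1.86. Without the pairing, in the edgeR fit of 36 libraries, neither of the last 2 was called, whereas DESeq2 called both (adjusted p 0.0273 and 0.0404).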

How the results depend on the processing

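Of 93 member calls, 83 held in every alternative run: 8 of 14 within a cell type, 73 of 77 between cell types and 2 of 2 differences of responses. Of 108 results with a call in any setting none reversed its sign. Of 2234 values with no call in any setting 212 had the other sign. Leaving out 1 library in turn gave 2 to 5 called members for HSCs at 12 h against WT (5 with all; fewest without WT replicate 3 or 4) and 1 to 3 for HSCs at 36 h against 12 h (3 with all; fewest without 36 h replicate 3). For the difference between HSC and LSEC responses at 12 h, with 0 members called in the fit of 36 libraries, leaving out 1 library gave 0 to 1 (1 without HSC 12 h replicate 4 or LSEC 12 h replicate 2). DESeq2 called 2 there, the replicate block in 36 libraries 1 (Ch25h), and the replicate block in HSC and LSEC libraries 2. Over all genes the count was 229, with 471 under DESeq2, 467 without hepatocytes and 797 with the block as well.

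Counts over all genes also moved by more than 1.5 times for HSCs at 36 h against WT (18, with 125 under DESeq2, 45 in the fit of 2 groups and 10 with the replicate block), for LSECs at 36 h against WT (0, with 107, 2 and 5) and for hepatocytes at 12 h, 36 h and between them (0 each, with 49, 59 and 24 under DESeq2, 1, 5 and 3 with the block and 2, 10 and 0 with the Malat1 term). The differences of responses moved likewise under DESeq2: LSECs against hepatocytes at 12 h from 503 to 1017, and at 36 h from 0 to 13 for HSCs against LSECs, from 1 to 62 for HSCs and from 1 to 85 for LSECs against hepatocytes. The cause of these shifts was not tested. In comparisons whose libraries share only a number, the replicate block added calls for Lpcat3 in HSCs (log2 fold 0.37) and Abca1 in LSECs (0.86) at 12 h and Cyp7b1 in LSECs from 12 h to 36 h (-1.10), and lost Ch25h in HSCs from 12 h to 36 h (-1.57). In the paired comparisons, the replicate block changed no member call beyond those given beside the results. Depth limits Ch25h and Cyp7b1 in HSCs, with 30 and 38 counts in the 4 WT libraries together.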
